A study of Mus musculus with 5 samples.

Results

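The Ifi200 genes encode the mouse PYHIN proteins, most of which join a pyrin domain to a HIN domain that binds DNA, and lie side by side on chromosome 1. The 7 genes described here are Aim2, Pyhin1, Ifi207, Ifi204, Mndal, Ifi203 and Ifi205, out of 24210 genes in the deposited table. They were chosen by name as genes of this cluster, with the knowledge that Ifi205 was among the genes with the largest increase, so their differences between the groups are given as descriptions without a test. Pyhin1 is listed under its current RefSeq symbol, Ifi209. The cells were LSK cells, sorted from the bone marrow of C57BL/6 mice as lineage-negative, Sca1-positive and cKit-positive, the fraction in which haematopoietic stem cells and early progenitors lie. There were 3 libraries titled KO, whose genotype field reads Aid+/-, and 2 titled WT, whose genotype field reads wild type. The series' design text describes a germ line Aid knockout and an age of 12 months. The first 3 are called KO-labelled here because title and genotype field differ.

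PYHIN genes are interferon-inducible. AIM2 recognises double-stranded DNA in the cytosol and recruits the adaptor ASC, the product of Pycard, and caspase-1 into an inflammasome. Other family members act in the nucleus or in DNA sensing upstream of STING, and p204, the product of Ifi204, and p205, the product of Ifi205, have been studied in myeloid differentiation.

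With 1 row kept per gene, totals were 35814828, 39194082 and 39453210 counts in KO libraries 1 to 3 and 29770604 and 38388437 counts in WT libraries 1 and 2. A floor of 3 counts, which covers counting error only, equals 0.076 to 0.084 CPM in KO-labelled libraries and 0.078 to 0.101 CPM in WT libraries. CPM are counts scaled to the library total, corrected by TMM composition factors. Whether each library is from its own animal is not stated in the labels, so p-values cover the spread among these libraries, possibly technical spread. The 10 LSK markers, among them Kit, Ly6a and Cd34, summed to 4282 to 4518 CPM in KO-labelled and 4386 to 4437 CPM in WT libraries. None of the 10 had an adjusted p under 0.05 in edgeR's quasi-likelihood test, the threshold used throughout, and 0 passed by DESeq2 or limma, while 4 had an unadjusted p under 0.05. Of all 14475 tested genes 0.794% passed in the higher direction, 1.19% in the lower and 1.98% in either direction. The share of all tested genes with an unadjusted p under 0.05 was not computed. Counts at that level therefore have no background, here and below.

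Ifi205 was the member that differed most between the groups. It had 473, 303 and 418 counts in KO libraries 1 to 3, against 80 and 90 counts in WT libraries 1 and 2. These correspond to 13.2, 7.80 and 10.7 CPM in KO-labelled libraries and 2.69 and 2.32 CPM in WT libraries. The lowest KO-labelled library stood well above both WT libraries, and KO library 2 was the lowest of the 3. The means were 10.5 ± 2.69 CPM in KO-labelled (SD, n = 3) and 2.50 ± 0.26 CPM in WT libraries (SD, n = 2), a log2 fold change of 2.08 ± 0.30 (SE), or 4.22-fold. Bulk values cannot separate more cells of a type from more RNA per cell. Without WT library 1 its log2 fold change was 2.18 ± 0.41 and without WT library 2 it was 1.97 ± 0.40.

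**Figure D1:**
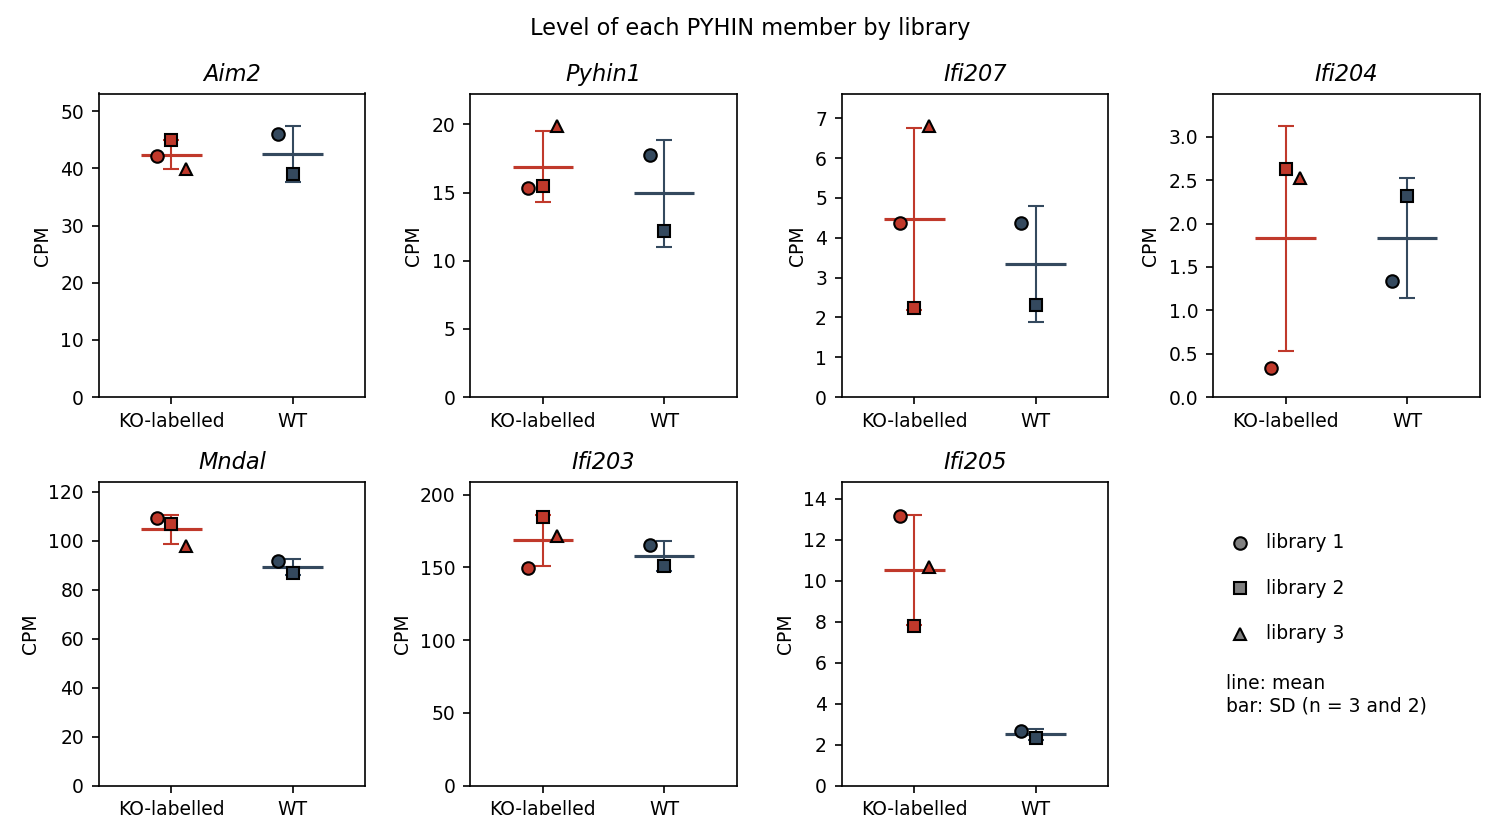
CPM of each of the 7 members in the 3 KO-labelled and 2 WT libraries, with the mean (line) and SD (bar) of each group; every axis starts at 0. Ifi205 lies at 7.80 to 13.2 CPM in KO-labelled and 2.32 to 2.69 CPM in WT libraries, whereas the groups overlap for every other member except Mndal.

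The other 6 members had log2 fold changes between -0.005 and 0.43. Mndal, a HIN-domain gene expressed at a high level, had 109, 107 and 97.7 CPM in KO-labelled libraries and 91.7 and 86.9 CPM in WT libraries. Its groups did not overlap either, with a log2 fold change of 0.23 ± 0.10. In 16.5% of all tested genes every KO-labelled library was above both WT libraries, and here 2 of 7 members were, Ifi205 and Mndal.

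Ifi203 had 149, 185 and 172 CPM in KO-labelled libraries, against 165 and 151 CPM in WT libraries. KO library 1 was the lowest of all 5, and the groups overlapped, with a log2 fold change of 0.09 ± 0.10. Aim2, the inflammasome sensor, had 42.1, 45.0 and 39.9 CPM in KO-labelled libraries and 46.0 and 39.1 CPM in WT libraries. The 2 groups covered the same range, and the log2 fold change was -0.005 ± 0.12. Pyhin1, whose human namesake is a nuclear DNA-binding protein, had 15.4, 15.5 and 19.9 CPM in KO-labelled libraries and 17.7 and 12.2 CPM in WT libraries, a log2 fold change of 0.18 ± 0.21. KO library 3 was the highest and WT library 2 the lowest.

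Per length of transcript, as given below, Ifi207 and Ifi204 were the least abundant members. Ifi207 had 4.37, 2.24 and 6.81 CPM in KO-labelled libraries and 4.36 and 2.32 CPM in WT libraries, a log2 fold change of 0.43 ± 0.46. The KO-labelled libraries enclosed both WT values. Ifi204, which encodes the DNA sensor p204, had 12, 102 and 99 counts in KO libraries 1 to 3 and 40 and 90 counts in WT libraries 1 and 2. KO library 1 stood apart from KO libraries 2 and 3, and the log2 fold change was -0.003 ± 0.72. Both members' SE covered a change in either direction. Over the 7 members the median log2 fold change was 0.18, against 0.001 over all tested genes, and 5 were above 0, as were 50.1% of all tested genes.

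**Figure D2:**
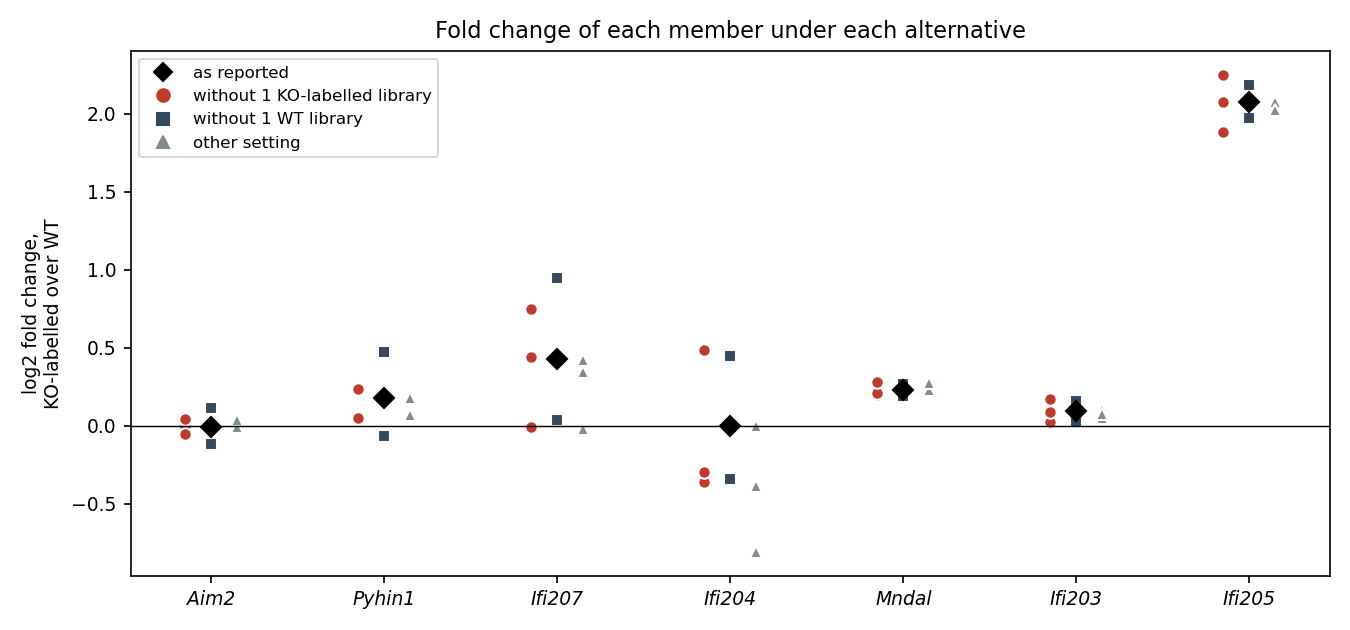
Log2 fold change (KO-labelled over WT) of each of the 7 members as reported (diamond), with each library left out and under the other settings. Ifi205 stays between 1.88 and 2.25 in all 11 alternatives, while Aim2, Pyhin1, Ifi207 and Ifi204 lie on both sides of 0.

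Ratios within a library do not depend on its scaling. Per 100 counts of Mndal there were 12.1, 7.30 and 10.9 counts of Ifi205 in KO libraries 1 to 3, against 2.93 and 2.67 in WT libraries 1 and 2. Per 100 counts of Ifi203 there were 8.82, 4.23 and 6.21 in KO-labelled and 1.63 and 1.54 in WT libraries. Per 100 counts of Aim2 there were 31.3, 17.3 and 26.7 in KO-labelled and 5.84 and 5.93 in WT libraries. In each of these 3 ratios all KO-labelled libraries stood above both WT libraries, with KO library 1 the highest. Ifi205 took 3.02% ± 0.90 of the counts of all 12 measured PYHIN genes in KO-labelled libraries (SD, n = 3) and 0.795% ± 0.026 in WT libraries (SD, n = 2). Ifi203 took 47.7% ± 3.01 and 50.3% ± 0.32 (SD, n = 3 and 2) of them in KO-labelled and WT libraries. The whole cluster summed to 337, 369 and 353 CPM in KO-labelled libraries and 330 and 298 CPM in WT libraries.

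**Figure D3:**
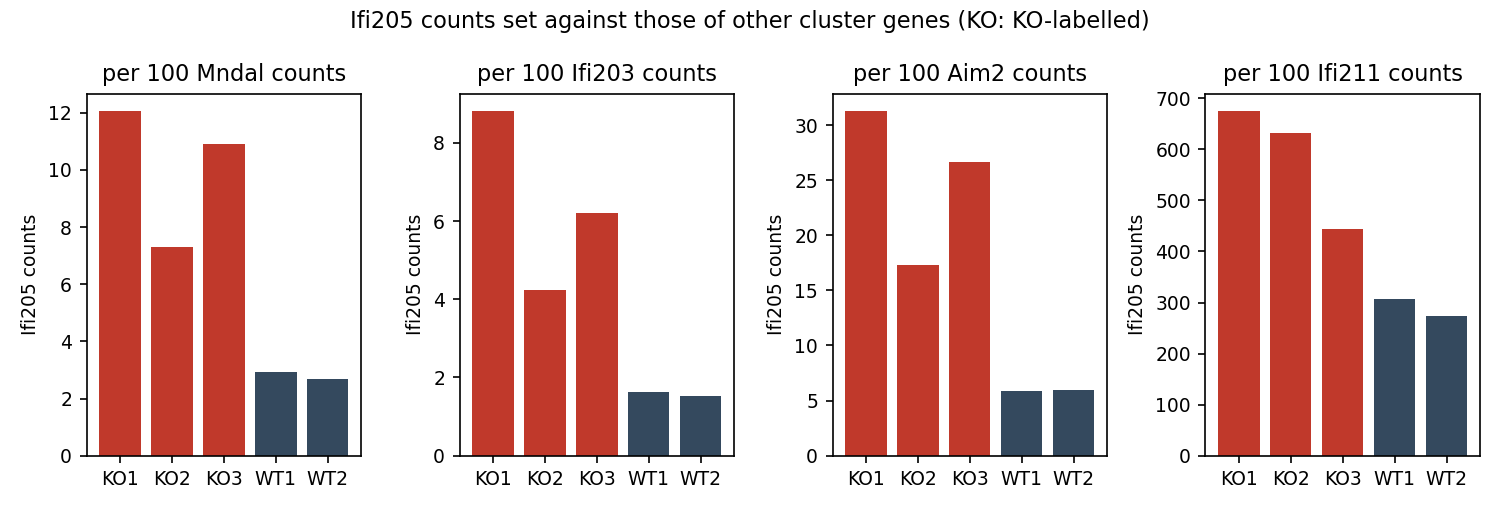
Bars give the counts of Ifi205 per 100 counts of Mndal, Ifi203, Aim2 and Ifi211 in each library, KO-labelled left of WT. All 3 KO-labelled libraries exceed both WT libraries in each panel, for Mndal with 7.30 to 12.1 in KO-labelled and 2.67 to 2.93 in WT libraries.

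Levels can be compared between genes only per length, here as CPM per kilobase of the GENCODE transcript (RPKM). The full length was used, with the stretches shared between cluster genes that are described below. Whether reads from such stretches were counted is not known, so the order is uncertain. In KO-labelled libraries the order was Ifi203 (55.2 ± 5.83 RPKM), Mndal (51.6 ± 3.0), Aim2 (14.9 ± 0.89), Ifi205 (6.54 ± 1.67), Pyhin1 (4.91 ± 0.75), Ifi207 (1.31 ± 0.67) and Ifi204 (0.80 ± 0.56; mean ± SD, n = 3). In WT libraries it was Ifi203 (51.7 ± 3.38 RPKM), Mndal (44.1 ± 1.69), Aim2 (14.97 ± 1.72), Pyhin1 (4.35 ± 1.14), Ifi205 (1.55 ± 0.16), Ifi207 (0.98 ± 0.42) and Ifi204 (0.80 ± 0.30; mean ± SD, n = 2). Ifi205 stood at rank 4 in KO-labelled and rank 5 in WT libraries. In KO-labelled libraries the neighbours Ifi203 and Mndal overlapped in that order, as did Ifi205 and Pyhin1, and Ifi207 and Ifi204. In WT libraries only Ifi207 and Ifi204 overlapped.

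Near copies in the cluster limit how far reads can be assigned. Of all stretches of 50 bases in the Ifi205 transcript (1613 bases), 49.5% also occur letter for letter in the transcript of Ifi211, and 41.5% of stretches of 100 bases do. For Mndal 26.3% of 50-base stretches occur in another cluster transcript, for Ifi204 29.7%, for Pyhin1 29.3%, for Ifi203 4.83% and for Ifi207 4.39%. Aim2 shares 0% at either length. The treatment of reads that match several genes is not given in the sources used here. The values of all genes with shared stretches, Ifi205 and Ifi211 most of all, are uncertain for that reason. No other gene of the table had the same counts as any member. Ifi211 had 70, 48 and 94 counts in KO libraries 1 to 3 and 26 and 33 counts in WT libraries 1 and 2. Its groups did not overlap, and its log2 fold change of 1.11 ± 0.62 did not pass edgeR's test (adjusted p = 0.471). Ifi205 counts exceeded Ifi211 counts in every library, at 676, 631 and 445 per 100 in KO-labelled and 308 and 273 per 100 in WT libraries.

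The remaining PYHIN genes of the cluster had few counts, and Ifi214 and Ifi202b were at or under the floor. Ifi208 had 46, 57 and 21 counts in KO-labelled and 6 and 46 counts in WT libraries (adjusted p = 0.827, edgeR). Ifi213 had 0, 39 and 28 counts in KO-labelled and 0 and 19 counts in WT libraries (adjusted p = 0.825, edgeR). Ifi214 reached 3 counts in KO library 2 and had 0 in the others, and Ifi202b had 0 in all 5. Of the PYHIN genes that are not members, Ifi211, Ifi208 and Ifi213 were tested. Of these 3, 0 passed by edgeR, DESeq2 or limma, and 0 had an unadjusted p under 0.05.

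Of the 7 members, 6 had a promoter in the RefSeq table (GRCm38.p6), from 250 bases before to 50 bases after the annotated start. The promoter of Ifi205 is shown because it is the member whose level differed most. Matches to the interferon-stimulated response element pattern GAAANNGAAA, read on both strands, are in capitals (chr1:174031706-174032005, minus strand):
Ifi205: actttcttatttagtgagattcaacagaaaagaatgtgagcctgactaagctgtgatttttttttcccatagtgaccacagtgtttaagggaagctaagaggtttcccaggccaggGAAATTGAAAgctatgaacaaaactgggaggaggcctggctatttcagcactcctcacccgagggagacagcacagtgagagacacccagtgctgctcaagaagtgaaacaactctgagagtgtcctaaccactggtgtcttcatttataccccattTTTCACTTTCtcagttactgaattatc
The pattern begins at base -134 and again, on the opposite strand, at base 24, counted from 1 at the start. Of the 6 members with a promoter, 4 held the pattern in at least 1 promoter, Ifi205, Ifi207, Mndal and Ifi203, as did 3.44% of 32851 promoters in the table. Mndal and Ifi203 had more than 1 promoter, so the 6 members had 8. The Ifi203 promoter at chr1:173942623-173942922 held no match. The gamma-activated site pattern TTCNNNGAA was in 0 of the 6 and in 8.3% of all promoters. The PU.1-type pattern GAGGAAGT was in 1 of them, Aim2, at base -113, and in 3.2% of all promoters.

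Around that pattern several cluster promoters resemble each other, and stretches of 50 bases are shown to compare their letters. They come from 5 members and from Ifi211 and Ifi208, chosen after the sequences were seen. For Mndal and Ifi203 the promoter that holds GAAATCGAAA is used. The capitals mark the 10-base element, which in Pyhin1 is the nearest match and does not hold the pattern; Ifi206, Ifi213 and Ifi214 hold it and are not shown:
Ifi205: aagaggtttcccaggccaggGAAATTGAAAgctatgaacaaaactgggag
Ifi211: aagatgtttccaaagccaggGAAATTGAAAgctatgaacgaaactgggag
Ifi207: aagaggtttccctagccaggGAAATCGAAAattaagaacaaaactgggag
Mndal: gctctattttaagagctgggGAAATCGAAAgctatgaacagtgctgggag
Ifi203: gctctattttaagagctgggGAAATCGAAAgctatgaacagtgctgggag
Pyhin1: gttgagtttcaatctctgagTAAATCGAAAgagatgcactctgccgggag
Ifi208: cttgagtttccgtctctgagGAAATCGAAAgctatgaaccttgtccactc
The exact form GAAATCGAAA, chosen for display after the sequences were seen, was in 16 of the 32851 promoters (0.0487%, both strands), and 7 of the 12 PYHIN genes with a promoter held it. Ifi205 and Ifi211 differ from it by C6T, counted from 1 at the 5′ end of the element, and that form, GAAATTGAAA, was in 0.116% of all promoters. The change removes the CpG of the element. Pyhin1 differs by G1T and keeps the CpG, although its promoter is 95.3% identical to that of Ifi214. With 1 promoter per gene, that of Ifi205 was 36.2% (Mndal) to 49.7% (Aim2) identical to the others over the whole alignment. The element begins at base -134 in Ifi205, and from base -79 (Pyhin1) to base -35 (Ifi203) in the other genes shown. The Ifi205 promoter holds 1 CpG in 300 bases, against a median of 7 over all promoters, and those of the other members hold 1 to 5. These matches describe letters only.

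The Ifi203 transcript was counted in 3 overlapping rows, of which the highest was used. In KO libraries 1 to 3 the highest row had 5362, 7168 and 6730 counts, against 4922 and 5850 counts in WT libraries 1 and 2. The lowest row lacked 18.1%, 24.4% and 25.9% of them in KO-labelled libraries and 16.7% and 21.1% in WT libraries. This share overlapped between the groups. The other members had 1 row each.

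Along the chromosome, 19 of the 20 tested genes nearest to the cluster, 10 at the Aim2 end and 9 beyond Ifi205, gave a local comparison. Of these 19 genes 1 rose and 0 fell by edgeR, a share of 5.26%, against 1.98% called among all tested genes, and their median log2 fold change was 0.004. The gene that rose was Slamf9, a receptor of the SLAM family 10 tested genes away from the Aim2 end. It had 88, 96 and 148 counts in KO-labelled and 1 and 16 counts in WT libraries (adjusted p = 0.0373, edgeR). The count in WT library 1 was under the floor of 3 counts. Slamf9 passed the filter on low counts through the KO-labelled libraries. The Slamf9 call was lost when KO library 2 or 3 was left out or with transcripts summed, where 0 of the 19 genes passed. Over all tested genes 264, 135 and 222 passed in these fits, against 287 with all libraries. With KO library 1 left out 2 of the 19 passed, and 673 over all tested genes. Slamf8 had 211, 189 and 271 counts in KO-labelled and 68 and 86 counts in WT libraries (log2 fold change 1.39 ± 0.33, adjusted p = 0.0557). Cadm3, the nearest tested gene at the Aim2 end, had a log2 fold change of 0.004 ± 0.54. Slamf8 and Cadm3 were named after their values were seen.

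**Figure D4:**
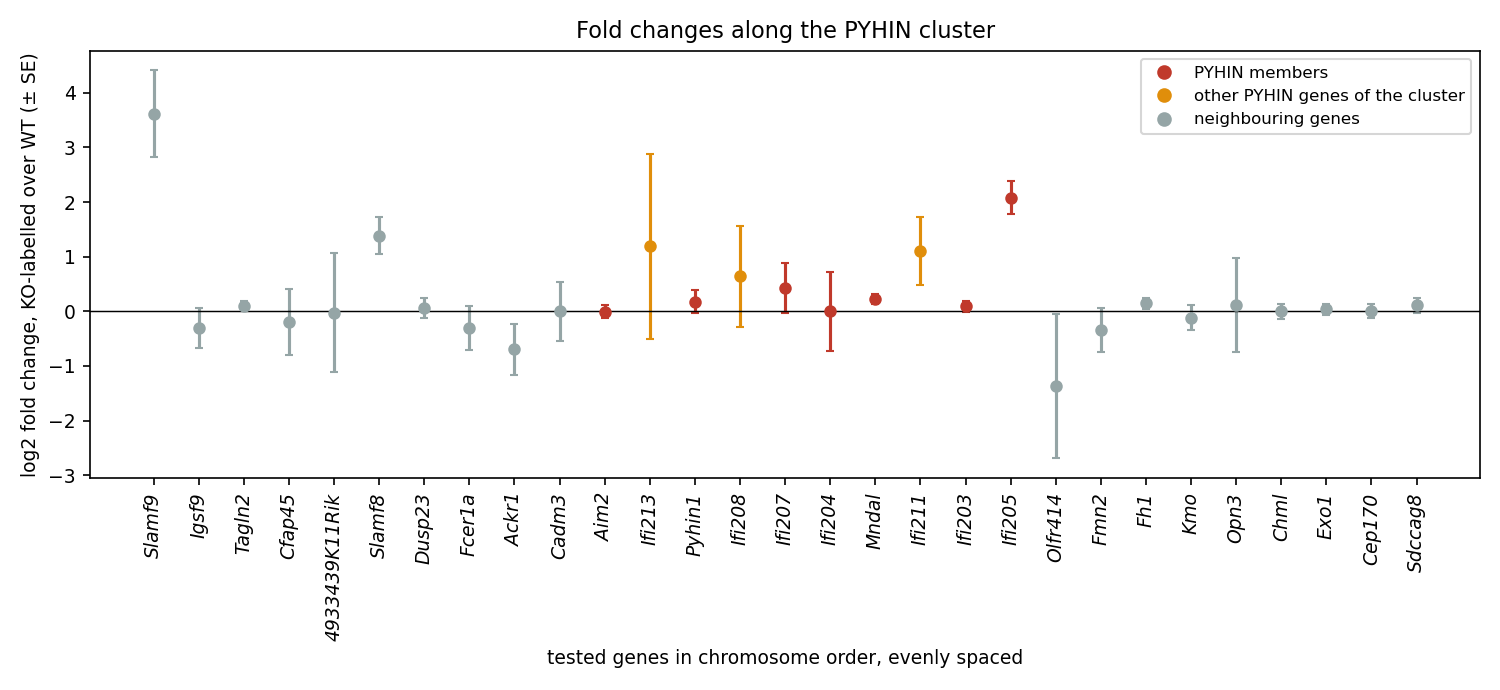
Log2 fold change with its SE (KO-labelled over WT) for the tested genes of the cluster, 10 tested genes on the Aim2 side and 9 on the other, in chromosome order and evenly spaced. Slamf9 at 3.62 and Ifi205 at 2.08 stand highest. Slamf8 at 1.39 ± 0.33, Ifi213 at 1.19 ± 1.70 and Ifi211 at 1.11 ± 0.62 follow. Mndal at 0.23 and Ifi203 at 0.09, on either side of Ifi211, are lower. The value of Slamf9 rests on 1 and 16 counts in WT libraries 1 and 2.

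The inflammasome list holds the direct partners of AIM2 and the sensors and caspases of other inflammasomes. Of its 23 tested genes 1 fell and 0 rose, with a median log2 fold change of -0.001 and 4.35% called, against 1.98% over all genes, and 3 had an unadjusted p under 0.05. Casp4, which encodes the caspase of the non-canonical inflammasome (caspase-11 in the mouse), fell to 30.9, 22.1 and 24.2 CPM in KO-labelled libraries, against 44.0 and 39.8 CPM in WT libraries (log2 fold change -0.70 ± 0.16, adjusted p = 0.0381, edgeR). The 2 most abundant genes of the list, Txnip (0.03 ± 0.09) and Casp8 (-0.08 ± 0.09), did not pass. Pycard, the adaptor that AIM2 recruits, had 46.6, 47.8 and 46.2 CPM in KO-labelled and 47.2 and 46.1 CPM in WT libraries. Casp1 had 72.4, 50.4 and 49.8 CPM in KO-labelled and 58.1 and 52.5 CPM in WT libraries. Pycard and Casp1 were named after their values were seen, as direct partners of Aim2. With KO library 2 or 3 left out, or with transcripts summed, 0 inflammasome genes passed. Over all tested genes 264, 135 and 222 passed in these fits, against 287 with all libraries.

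Among 33 tested genes of nucleic acid sensing 2 rose and 0 fell, with a median log2 fold change of 0.04. The called share was 6.06%, against 1.98% over all genes, and 9 had an unadjusted p under 0.05. Irf7, a transcription factor of the interferon response, rose to 36.7, 46.5 and 50.3 CPM in KO-labelled libraries, against 29.9 and 25.7 CPM in WT libraries (log2 fold change 0.68 ± 0.15, adjusted p = 0.0423, edgeR). Nbn, a subunit of the MRE11 complex that binds DNA breaks, rose to 66.5, 68.7 and 68.7 CPM in KO-labelled libraries, against 53.2 and 41.7 CPM in WT libraries (log2 fold change 0.52 ± 0.12, adjusted p = 0.0475, edgeR). In both genes every KO-labelled library stood above both WT libraries. Cgas, the cytosolic DNA sensor, had a log2 fold change of 0.03 ± 0.16 and Sting1, its adaptor, one of -0.04 ± 0.08; both were named after their values were seen. With KO library 2 or 3 left out, or with transcripts summed, 0 genes of the list passed. Over all tested genes 264, 135 and 222 passed in these fits, against 287 with all libraries. With KO library 1 left out, 3 rose and 1 fell, while 673 passed over all tested genes.

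Of 49 tested interferon target genes outside the PYHIN family, 4 rose and 0 fell, with a median log2 fold change of 0.15. The called share was 8.16%, against 1.98% over all genes, and 15 had an unadjusted p under 0.05. In 23 of the 49 genes every KO-labelled library was above both WT libraries, against 16.5% of all tested genes. The 4 that rose were the GTPases Igtp, Iigp1 and Ifi47, and Rtp4; Iigp1 stood at 59.6, 58.5 and 65.4 CPM in KO-labelled and 37.0 and 46.0 CPM in WT libraries. The number that rose was 13 when KO library 1 was left out, 2 when KO library 2 was and 0 when KO library 3 was. Over all tested genes 673, 264 and 135 passed in these fits in either direction, against 287 with all libraries. The number of interferon target genes that rose was 7 by DESeq2 and 2 with transcripts summed, where 574 and 222 genes passed over the whole table. Of 13 tested genes whose products have been linked to HIN-200 proteins, such as Ubtf (0.13 ± 0.07) and Nfkb1 (-0.08 ± 0.08), 0 passed by edgeR, DESeq2 or limma, and 2 had an unadjusted p under 0.05.

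**Figure D5:**
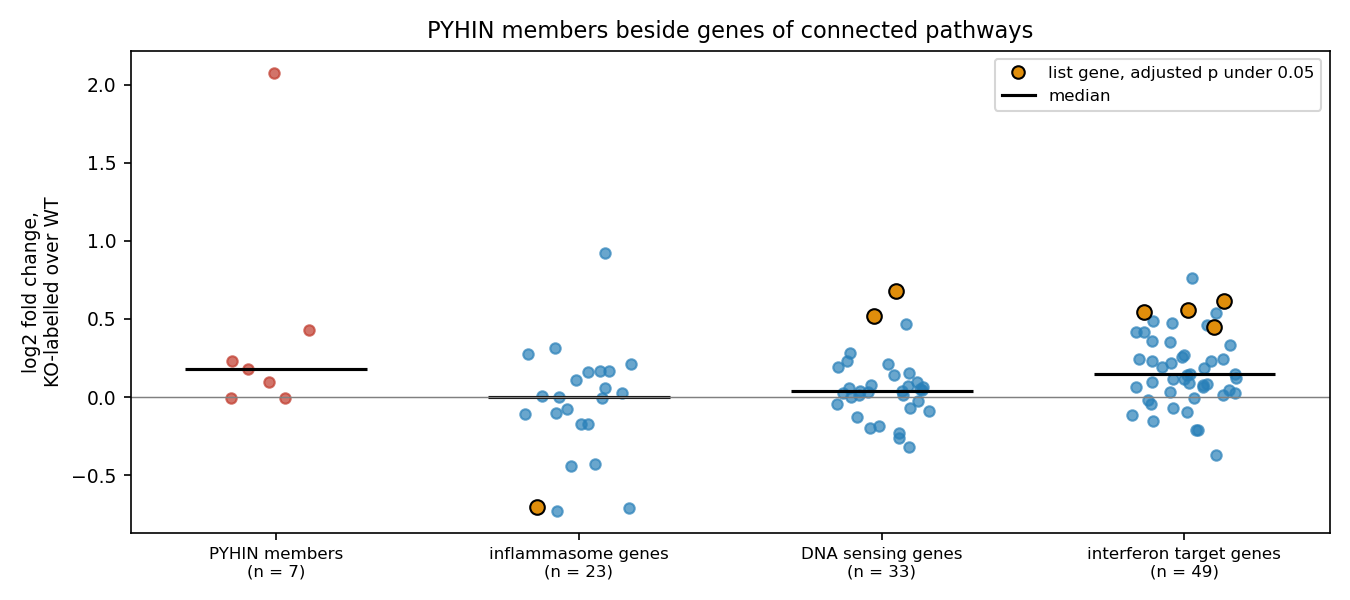
Log2 fold change (KO-labelled over WT) of the 7 members and of the tested genes of 3 connected lists, with the median as a line; filled orange points are list genes with an adjusted p under 0.05. Ifi205, whose increase was known when the members were chosen, lies at 2.08, above every gene of the 3 lists. The medians of the lists run from -0.001 to 0.15.

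The 5 tested genes with the pattern most like that of Ifi205, by the root mean square difference of centred log2 CPM over 5 libraries, were Pilrb1 (0.222), Lingo3 (0.256), Gem (0.269), Gm15708 (0.276) and Bcl11b (0.294). Pilrb1 had 0.502, 0.283 and 0.255 CPM in KO-labelled and 0.034 and 0.026 CPM in WT libraries. Its WT values were under the floor, and it passed the filter on low counts through the KO-labelled libraries. Lingo3, Gm15708 and Bcl11b also passed that filter through the KO-labelled libraries. In WT libraries 1 and 2 Lingo3 had 0.20 and 0.15 CPM, Gm15708 0.27 and 0.10 and Bcl11b 0.37 and 0.15. Gem, a small GTP-binding protein, was the only abundant one, with 33.2, 29.8 and 26.3 CPM in KO-labelled and 8.90 and 8.76 CPM in WT libraries. Within the cluster Ifi211 was closest to Ifi205 at 0.535, and Mndal followed at 0.913. Of the 50-base stretches of the Ifi211 transcript, 44.6% also occur in that of Ifi205. The part of shared reads in the likeness of Ifi211 to Ifi205 was not tested.

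PYHIN genes are expressed in several blood lineages, so markers of other cells were summed. The 12 macrophage and monocyte markers summed to 118 to 186 CPM in KO-labelled and 201 to 217 CPM in WT libraries, with 0 passing by edgeR or limma, 1 by DESeq2 and 1 at an unadjusted p under 0.05. The 10 B cell markers summed to 56.5 to 61.1 CPM in KO-labelled and 48.8 to 59.3 CPM in WT libraries, with 0 of 9 tested passing by edgeR, DESeq2 or limma, or at an unadjusted p under 0.05. The 11 dendritic cell markers, most of whose sum is Flt3, a receptor that LSK cells carry too, summed to 525 to 766 CPM in KO-labelled and 567 to 615 CPM in WT libraries; 1 rose, 3 passed by DESeq2 and 6 had an unadjusted p under 0.05. The 11 T and NK cell markers summed to 126 to 143 CPM in KO-labelled and 155 to 156 CPM in WT libraries; 1 fell, and 1 each passed by DESeq2 and at an unadjusted p under 0.05. The 9 erythroid markers summed to 228 to 324 CPM in KO-labelled and 129.7 to 139 CPM in WT libraries; 4 rose, 5 passed by DESeq2 and 6 had an unadjusted p under 0.05. The 9 granulocyte markers summed to 2837 to 3521 CPM in KO-labelled and 4013 to 4381 CPM in WT libraries; 3 fell, 6 passed by DESeq2 and 8 had an unadjusted p under 0.05. Over all tested genes 287 (1.98%) passed by edgeR, 574 by DESeq2 and 313 by limma. None of these markers was at 0 counts in all 5 libraries, and the part of such cells in the level of Ifi205 was not tested.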

How the data were processed

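The authors deposited raw read counts per RefSeq transcript, 33862 rows in 5 libraries. The tools named in the submitters' processing notes are STAR, Subread 1.4.5-p1 and featureCounts, with the build mm9 (NCBIM37); how they were set, strand and shared reads included, is not stated there. Row names came from RefSeq (33485) or GENCODE (188), and 189 unnamed rows (0.362% to 0.459% of counts) were left out. For each gene the row with the most counts was kept. After filterByExpr and TMM scaling, 14475 genes were tested by edgeR's robust quasi-likelihood test (edgeR 4.0.16, R 4.3.3), two-sided, with Benjamini-Hochberg adjustment over all of them and a threshold of 0.05; the script was checked on simulated counts. Alternatives were DESeq2 1.42.0, limma-trend (limma 3.58.1), upper quartile scaling, no filter, summed transcripts, the replicate number as a block, and leaving out each library. Members and lists were chosen with earlier results of these data known. Named genes were all measured cluster genes, up to 4 per list past the threshold by smallest p (where fewer than 2 passed, the 2 most abundant), called neighbours and the 5 genes most like Ifi205; others are marked where named. Some genes, and a list whose result needs one of them, are not reported here; they stayed in the fit and in counts over all genes. Transcript lengths and shared stretches were taken from GENCODE M21 and promoters from RefSeq.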

Additional observations from a re-analysis of the deposited data

How the results depend on the processing

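Under 11 alternatives the log2 fold change of Ifi205 ran from 1.88 to 2.25, that of Mndal ran from 0.19 to 0.28 and that of Ifi203 from 0.02 to 0.17. Aim2 (-0.12 to 0.12), Pyhin1 (-0.07 to 0.47), Ifi207 (-0.02 to 0.95) and Ifi204 (-0.81 to 0.49) took both signs. The median of the members stayed between 0.04 and 0.27, and no scaling moved the median of all genes by more than 0.006. The causes of the following shifts were not tested. Genes called over the whole table numbered 574 with DESeq2, 455 with no count filter and 150 with the replicate block, and 6 to 673 with 1 library left out. With 1 library left out the counts were 0 to 4 for DNA sensing, 0 to 1 for inflammasome, 0 to 13 for interferon target and 0 to 2 for neighbouring genes. Where a WT library is left out, the remaining 1 is assumed to vary as much as the KO-labelled ones. DESeq2 called 7 interferon target and 2 neighbouring genes. With no count filter 2 neighbouring genes passed, and limma called 2 neighbouring genes. With transcripts summed 2 interferon target genes and 0 DNA sensing, inflammasome and neighbouring genes passed. With the replicate block 0 DNA sensing, 0 inflammasome, 0 interferon target and 0 neighbouring genes passed. In the labels same-numbered libraries share only a number. The deviations of KO and WT library 1 from their group means correlated at 0.041 and those of library 2 at 0.015 across genes. The deviations of the 2 WT libraries mirror each other, so these values cannot decide whether the libraries were paired. With 3 and 2 libraries, members under about 5 CPM such as Ifi204 and Ifi207 have an SE of 0.46 to 0.72 on the log2 scale.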
